A study of Mus musculus with 12 samples.

Results

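The contractile genes of smooth muscle and of myofibroblasts (Acta2, Actg2, Tagln, Cnn1, Cnn2, Smtn, Lmod1, Mylk and Synpo2) were examined in the mouse heart. These 9 genes were matched by symbol to their Ensembl identifiers among the 38293 genes of each of 2 RNA sequencing tables, and all 9 were found in both. The first table held 3 WT sham hearts and 3 WT IR hearts, all wild type. Sham mice had surgery without injury, and IR mice had the left anterior descending coronary artery tied for 1 h and then reopened (ischaemia-reperfusion, IR), with the tissue taken 14 days later. The second table held 3 Zeb2 WT IR and 3 Zeb2 cTg IR hearts, also 14 days after IR, so that both of its groups were injured, and all 4 groups were of the C57Bl/6J strain. Zeb2 cTg mice carried a Zeb2 transgene in the Rosa26 locus behind a stop cassette that Cre removes, and the Cre was driven by the Myh6 promoter, which is active in cardiomyocytes. Zeb2 WT mice were wild-type littermates, and it is not stated whether they carried the Cre. The mice were 8 to 9 weeks old, and each library came from 1 animal. The sources differ on the part of the heart, which the labels give as left ventricle, the methods as the remote zone and the design text as the infarct with its border zone. The first comparison asks how the injury changed gene expression in the heart. The second was designed to ask how Zeb2 overexpression changed it after the injury. Zeb2 counts, however, were not higher in Zeb2 cTg IR (values below), so it compares the groups by their labels.

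In smooth muscle, calcium binds calmodulin, which switches on the myosin light chain kinase, and the phosphorylated myosin then pulls on thin filaments made of smooth muscle actins and lined with calponin, transgelin and smoothelin. In the heart this apparatus is known from the smooth muscle cells around the coronary vessels. Fibroblasts that turn into myofibroblasts in a healing infarct switch on several of the same genes, above all Acta2, and stressed or immature cardiomyocytes can express some of them too. Most of these genes are switched on by serum response factor (SRF) bound to a CArG box in their promoters, together with its cofactor myocardin or the related MRTF proteins.

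Promoter windows of 300 bases (250 before and 50 after the gene start, from RefSeq on build GRCm38.p6) were matched for 7 of the 9 genes, all but Actg2 and Tagln. The windows of Mylk (chr16:34784700-34784999) and Smtn (chr11:3539243-3539542) lay inside the gene spans given below, so the outermost starts of these genes were not searched. A CArG box has CC, then 6 letters that are each A or T, then GG, and 1.63% of all 32851 windows held one on either strand. Among the 7 genes, Cnn2 alone held a match to this strict form, and sequence outside the windows was not searched. The Acta2 window held none, but it held a pair of near matches, in which 1 of the 6 middle letters is C or G. This looser form, added after the data had been seen, was found in 8.5% of all windows. Binding of SRF was not tested for either form. Myl9, the regulatory light chain that the kinase phosphorylates, is not one of the 9 genes and was added here after its values had been seen, and its window held both forms. The sequences are shown because the results turn on Acta2 and Myl9, and because Cnn2 holds the strict match, with CArG boxes and near matches in capitals. The Acta2 window is chr19:34255324-34255623 on the minus strand, and the others are the matches with 20 bases on each side from the windows chr10:79988350-79988649 (Cnn2, plus strand) and chr2:156775214-156775513 (Myl9, plus strand).
Acta2 promoter window: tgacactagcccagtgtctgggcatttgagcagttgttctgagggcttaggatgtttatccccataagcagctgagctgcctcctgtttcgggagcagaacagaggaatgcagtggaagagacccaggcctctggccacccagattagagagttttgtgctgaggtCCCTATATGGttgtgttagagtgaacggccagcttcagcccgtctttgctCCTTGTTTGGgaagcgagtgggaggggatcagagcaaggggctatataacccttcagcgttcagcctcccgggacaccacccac
Cnn2 CArG box: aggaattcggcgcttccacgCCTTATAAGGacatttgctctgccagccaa
Myl9 CArG box: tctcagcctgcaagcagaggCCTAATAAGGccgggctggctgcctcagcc
Myl9 near match: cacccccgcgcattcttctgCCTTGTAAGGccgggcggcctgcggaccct

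The MCAT element (CATTCC, the site of the TEAD factors) was found in the windows of Acta2, Smtn, Lmod1 and Mylk, and in 14.7% of all windows. The E-box CACCTG, the kind of site that ZEB proteins bind, was found once in the windows of Lmod1 and Myl9 and at 2 places in that of Synpo2 (chr3:123236100-123236399, minus strand), and in 20.2% of all windows. Both motifs were searched on both strands, and neither overlapped a CArG box or a near match. The Synpo2 matches, which lie on the opposite strand and so read CAGGTG, are shown in capitals and with 20 bases on each side, because Synpo2 was the member that lay lower in the second comparison without overlap of the groups. Its difference did not pass (edgeR adjusted p = 0.16), and the groups did not overlap for 26.2% of all tested genes. Lmod1 and Myl9, which also held the E-box, had log2 fold changes of 0.073 and 2.37 there. Any part of the E-boxes in these values was not tested.
Synpo2 first E-box: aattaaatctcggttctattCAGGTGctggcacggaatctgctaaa
Synpo2 second E-box: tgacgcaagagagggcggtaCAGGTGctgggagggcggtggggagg

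Each library held between 20215781 and 36816818 counts, of which between 5706340 and 11618213 fell outside the mitochondrial genome. Values are given as CPM (counts per 1000000, after TMM scaling within a table), and 1 CPM stood for between 17.2 and 37.8 counts. In the second table, replicate 2 had the highest mitochondrial share of counts in both groups, 73.5% in Zeb2 WT IR and 70.6% in Zeb2 cTg IR. Zeb2 itself was 54.7, 57.7 and 67.0 CPM in Zeb2 WT IR and 55.5, 56.8 and 58.7 CPM in Zeb2 cTg IR, so it was not higher in the latter, which are therefore called the libraries with the label Zeb2 cTg IR. The tissue carried its defining markers, since the summed level of 8 cardiomyocyte genes lay between 15353 and 24456 CPM, whereas 5 skeletal muscle genes summed to at most 2.46 CPM and 3 atrial genes to at most 3.17 CPM. Myh11, the myosin heavy chain that defines mature smooth muscle, lay between 6.64 and 18 CPM in all 12 libraries.

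Per exon length, Acta2 was the most abundant of the 9 genes in every library. Its length-scaled level (TPM, from the counts per kb of exon of genes outside the mitochondrial genome) had a median of 213 in WT sham, 167 in WT IR, 107 in Zeb2 WT IR and 301 in Zeb2 cTg IR. In WT sham the order of the medians was Acta2, Smtn (96.4), Cnn2 (67.3), Synpo2 (48.1), Tagln (22.6), Mylk (10.4), Lmod1 (1.43), Cnn1 (1.33) and Actg2 (0.777), and no gene from Acta2 to Mylk overlapped the one after it. Lmod1, Cnn1 and Actg2 overlapped their neighbours in the order in all 4 groups, so these low genes could not be ranked among each other. Synpo2, whose exons span 13089 bases, held 988 to 2109 counts per library, but Smtn and Cnn2 ranked above it in WT sham per length. These levels were scaled within each library, the medians are those of each group, and the tables were not compared with each other by a test.

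After IR in wild-type hearts the 9 genes did not move together. Tagln rose, Acta2, Smtn and Synpo2 fell, Cnn1, Cnn2, Lmod1 and Mylk did not pass the test, and Actg2 had too few counts to be tested. Thus 1 of the 8 tested genes was higher and 3 were lower, where 11.0% of all 13756 tested genes were higher and 9.74% lower (20.8% in both directions) at an adjusted p-value under 0.05 in edgeR's quasi-likelihood test with Benjamini-Hochberg adjustment over all genes, which gave every adjusted p below. The groups did not overlap for 4 of the 8, against 39.8% of all tested genes. The median log2 fold change of the 8 genes was -0.093, and that of all tested genes was 0.0064. Because whole tissue was sequenced, fewer cells of a type and less RNA per cell cannot be told apart.

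**Figure D1:**
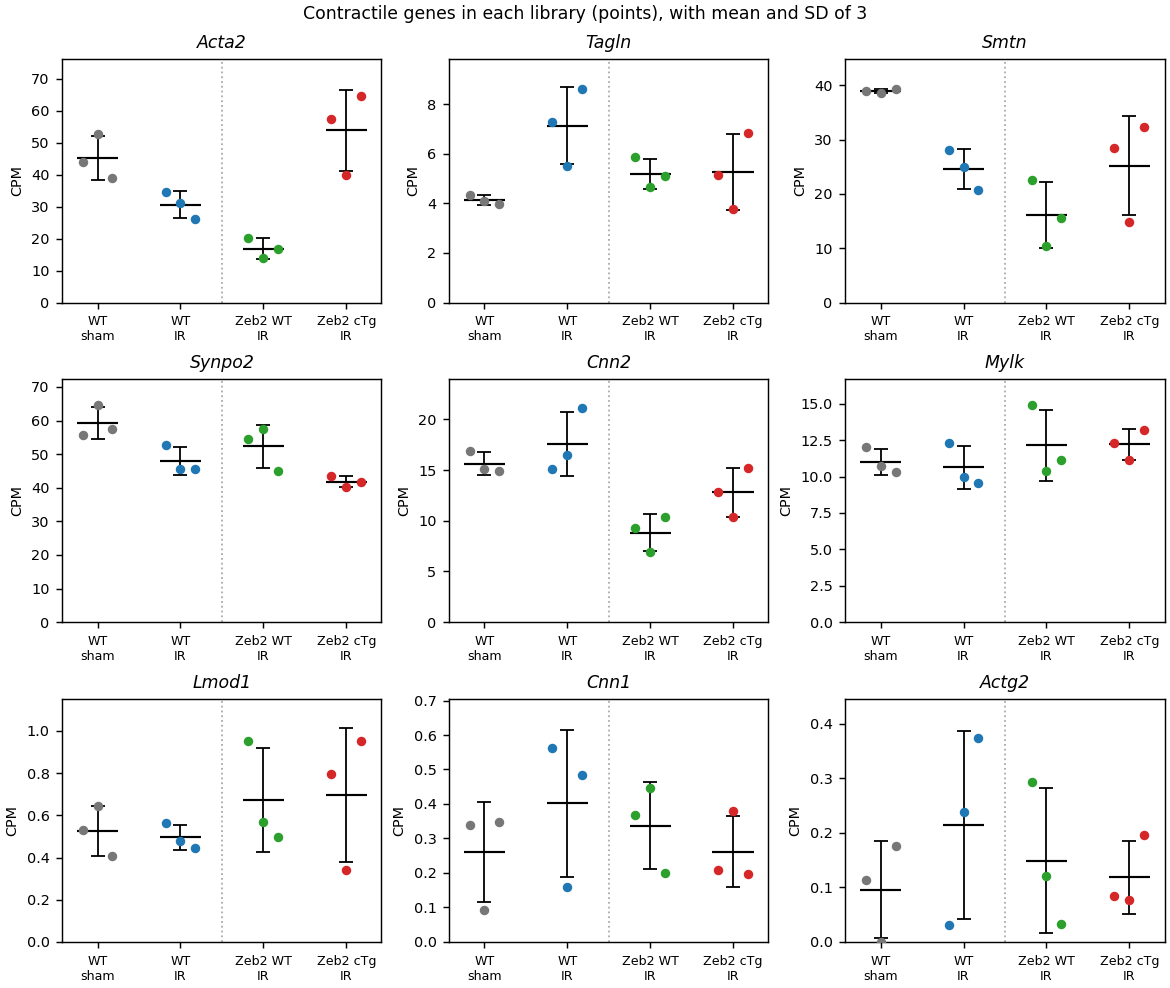
TMM-normalized CPM (y axis, from 0) of the 9 genes in each library (points) of the 4 groups (x axis), with the mean and SD of 3 libraries and a dotted line between the separately normalized tables. The 3 Zeb2 cTg IR libraries sit at 39.8 CPM or more for Acta2, above the 3 Zeb2 WT IR libraries at 20.2 CPM or less.

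Acta2 (ENSMUSG00000035783, chr19:34241090-34255590 on build GRCm38, minus strand), the alpha actin of vascular smooth muscle and the usual marker of myofibroblasts, was 43.8, 52.6 and 39.0 CPM in WT sham and 34.4, 31.1 and 26.1 CPM in WT IR. All 3 injured hearts lay below all 3 sham hearts. The log2 fold change was -0.57 ± 0.13 (SE, n = 3 per group), or 1.48-fold lower, with an edgeR adjusted p of 0.0163. Without WT sham replicate 2, which held the highest value, the change was -0.45 with an adjusted p of 0.0871, and without WT IR replicate 2 it was -0.58 with an adjusted p of 0.0637.

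Tagln (ENSMUSG00000032085, chr9:45929619-45936058, minus strand; transgelin, an actin-bundling protein of smooth muscle and an early marker of the lineage) moved the other way, from 4.35, 4.11 and 3.96 CPM in WT sham to 7.28, 5.53 and 8.61 CPM in WT IR. The groups did not overlap, and the rise was 1.71-fold (log2 fold change 0.77 ± 0.16, edgeR adjusted p = 0.0133). It lost the call without WT sham replicate 2 (adjusted p = 0.0733) and without WT sham replicate 3 (0.0521). Of the windows of one read length (75 bases) along the Tagln transcript, 40.9% were also found, reversed, in transcripts of genes on the opposite strand, chiefly the antisense gene Gm48529. The labels name a stranded kit, but it is not stated whether the counting used the strand, and the part of antisense reads in these counts was not tested.

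Smtn (ENSMUSG00000020439, chr11:3517523-3540612, minus strand; smoothelin, an actin-associated protein of contractile smooth muscle) was 38.9, 38.6 and 39.3 CPM in WT sham and 28.1, 24.9 and 20.8 CPM in WT IR. No injured heart reached the sham range. Smtn fell by 0.66 ± 0.10 on the log2 scale (edgeR adjusted p = 0.00506), the smallest adjusted p of the 8 tested genes in this comparison, and it kept the call with each of the 6 libraries left out in turn. Of its windows of one read length, 9.54% were also found in Gm11946 on the opposite strand, which had between 0 and 7 counts in the 12 libraries.

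Synpo2 (ENSMUSG00000050315, chr3:123076519-123236149, minus strand; synaptopodin 2 or myopodin, an actin-binding protein of smooth muscle and of Z-discs in striated muscle) went from 55.6, 64.6 and 57.5 CPM to 52.7, 45.7 and 45.5 CPM. The groups lay close but did not overlap, with a log2 fold change of -0.30 ± 0.091 and an edgeR adjusted p of 0.0424. Only the fit without WT IR replicate 1 kept the call among the 6 that left a library out, and without the others the adjusted p lay between 0.072 and 0.177.

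With TMM factors the remaining members did not pass. Cnn2 (ENSMUSG00000004665, chr10:79988584-79996062), the calponin that is also found outside muscle, was 16.9, 15.1 and 14.9 CPM in WT sham and 15.1, 16.5 and 21.1 CPM in WT IR (log2 fold change 0.16 ± 0.12, edgeR adjusted p = 0.37). Mylk (ENSMUSG00000022836, chr16:34745210-35002420), the kinase of the myosin light chain, lay between 10.3 and 12 CPM in WT sham and between 9.58 and 12.3 CPM in WT IR (log2 fold change -0.054 ± 0.11). The ranges of both genes overlapped. Cnn1 (ENSMUSG00000001349, chr9:22099216-22109630), the calponin specific to smooth muscle, had only 3 to 9 counts per sham library and 6 to 18 per injured library, and its difference of 0.69 had an SE of 0.60. Lmod1 (ENSMUSG00000048096, chr1:135324807-135368065), the leiomodin that nucleates actin filaments in smooth muscle, had 7 to 21 counts per library in this table, with a difference of -0.13 ± 0.29. Actg2 (ENSMUSG00000059430, chr6:83512905-83536265), the gamma actin of visceral smooth muscle, had 3, 0 and 3 counts in WT sham and 1, 9 and 10 in WT IR. The 0 allows up to 3 counts, or 0.0919 CPM in that library, for counting error only, and with these counts only a large difference could have been seen.

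Several of these calls depended on the size factors. With factors set so that the summed counts of 8 cardiomyocyte marker genes were level between libraries, the median of all tested genes moved from 0.0064 to 0.41, and the share of calls that were higher went from 53.1% to 97.6%. With these factors Acta2 was at -0.17 (edgeR adjusted p = 0.308), Smtn at -0.28 (0.101) and Synpo2 at 0.09 (0.583), while Tagln was at 1.19 (0.00487) and Cnn2 at 0.60 (0.0427), so that Cnn2 passed and the count of members called became 2. All 8 cardiomyocyte markers had a log2 fold change below 0 under the TMM factors, and 2 of them fell (Tnni3 and Ryr2). Their part in the values of the other genes was not tested. In 1 fit over all 12 libraries, which share 1 estimate of the spread, the edgeR adjusted p was 0.0656 for Acta2, 0.125 for Smtn and 0.0916 for Synpo2, and Tagln alone of the 4 kept the call. Without WT sham replicate 2 the calls over all genes dropped from 2859 to 421, and only Smtn of the 4 members kept its call there.

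In the second comparison 1 member passed the test. Acta2 rose in the libraries carrying the label Zeb2 cTg IR, and none of the other 6 tested genes passed in either direction, with Actg2 and Cnn1 too low to be tested. This is 1 of 7 higher and 0 lower, where 2.14% of all 13018 tested genes were higher and 1.51% lower (3.64% in both directions). DESeq2 and limma-voom also called 1 higher and 0 lower, and at an unadjusted p under 0.05 there were 2 higher and 1 lower. The groups did not overlap for 3 of the 7 (Acta2, Cnn2 and Synpo2), against 26.2% of all tested genes. The median log2 fold change of the 7 genes was 0.073, beside 0.0059 over all tested genes.

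Acta2 was 20.2, 13.8 and 16.6 CPM in Zeb2 WT IR and 57.2, 39.8 and 64.5 CPM in the libraries with the label Zeb2 cTg IR. The groups lay far apart, with no library of either group near the other. The increase was 3.18-fold, with a log2 fold change of 1.67 ± 0.20 (n = 3 per group) and an edgeR adjusted p of 0.00463. It passed in all 19 alternative settings, the 6 with 1 library left out and those with other size factors included, with a log2 fold change between 1.51 and 1.84. No window of one read length along the Acta2 transcript was found in a transcript of another gene.

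**Figure D2:**
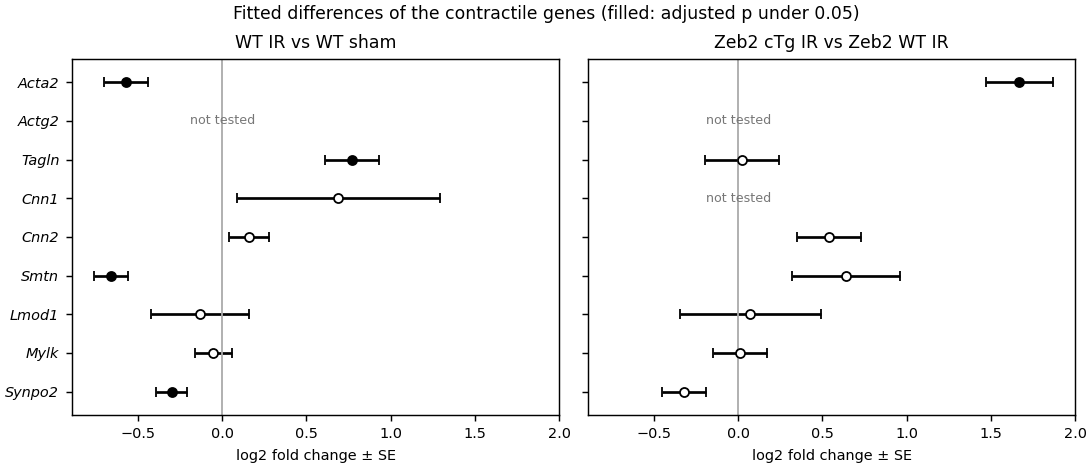
Log2 fold change (x axis) with its SE for the tested genes among the 9 in WT IR against WT sham (left) and Zeb2 cTg IR against Zeb2 WT IR (right), 3 libraries per group (Actg2 was tested in neither and Cnn1 only on the left). Acta2 lies at -0.57 on the left and at 1.67 on the right, and Tagln at 0.77 on the left and at 0.022 on the right.

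Tagln did not pass in this comparison. It was 5.86, 4.65 and 5.09 CPM in Zeb2 WT IR and 5.15, 3.78 and 6.85 CPM in the libraries labelled Zeb2 cTg IR, so that the second range enclosed the first. The log2 fold change was 0.022 ± 0.22 (edgeR adjusted p = 0.965), and its sign turned in 6 of the alternative settings.

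Cnn2 was 9.24, 6.88 and 10.4 CPM in Zeb2 WT IR and 12.8, 10.4 and 15.2 CPM in Zeb2 cTg IR, with a log2 fold change of 0.54 ± 0.19 and an edgeR adjusted p of 0.138. Its groups touched at 10.4 CPM and counted as not overlapping by less than the rounding of these values. Smtn was 22.5, 10.4 and 15.5 CPM against 28.4, 14.9 and 32.3 CPM (0.64 ± 0.32, adjusted p = 0.25), and its groups overlapped. In both groups replicate 2 was the lowest library for Smtn and for Cnn2. Of the 6 members with at least 10 counts in every library, replicate 2 was the lowest of its group for 5 in Zeb2 WT IR and for all 6 in Zeb2 cTg IR, and these are the libraries with the highest mitochondrial shares. With both of these libraries left out, a choice made after seeing the data, Cnn2 was at 0.51 (edgeR adjusted p = 0.042), Smtn at 0.67 (0.0342) and Acta2 at 1.72 (0.000455). After a correction for the GC content of the transcripts, however, Smtn was at 0.14 (0.603) and Cnn2 at 0.34 (0.162), while Acta2 stayed at 1.67 (0.00214).

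Synpo2 had 54.4, 57.5 and 45.1 CPM in Zeb2 WT IR and 43.6, 40.2 and 41.6 CPM in Zeb2 cTg IR. All 3 values of the second group lay below the first, but the difference of -0.32 ± 0.13 did not pass (edgeR adjusted p = 0.16). Mylk was 14.9, 10.4 and 11.1 CPM against 12.3, 11.1 and 13.2 CPM, a difference of 0.012 ± 0.16. Lmod1 had 9 to 34 counts per library (0.073 ± 0.42). Cnn1 had 10, 11 and 6 counts in Zeb2 WT IR and 5, 10 and 7 in Zeb2 cTg IR, and Actg2 had 8, 3 and 1 against 2, 2 and 7. For the 2 genes that were not tested, the ranges of the groups overlapped.

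Ratios of counts within a library do not depend on its size factor. With 3 libraries against 3, an exact two-sided permutation test over the 20 arrangements cannot give less than 0.1, and 5 ratios were compared in each table (with Benjamini-Hochberg adjustment over the 5, an exact p of 0.1 became 0.167). Acta2 counts were 10.1, 12.8 and 9.87 times those of Tagln in WT sham and 4.73, 5.63 and 3.03 times in WT IR. They were 3.45, 2.97 and 3.27 times in Zeb2 WT IR and 11.1, 10.5 and 9.42 times in the libraries with the label Zeb2 cTg IR. The ratio was 2.51-fold lower after IR and 3.2-fold higher in the second comparison, without overlap and with an exact p of 0.1 in both. Relative to Myh11, Acta2 went from between 4.86 and 6.39 to between 3.22 and 4.69 after IR, and from between 1.12 and 1.48 to between 3.57 and 3.78 in the second comparison (exact p = 0.1 in both). Relative to the cardiac actin Actc1, it was 1.24-fold lower after IR and 2.67-fold higher in Zeb2 cTg IR (exact p = 0.1 in both). The ratios of Cnn1 to Cnn2 and of Actg2 to Acta2 overlapped between the groups in the WT table (exact p = 0.6 and 0.4) and had an exact p of 0.2 in the other.

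**Figure D3:**
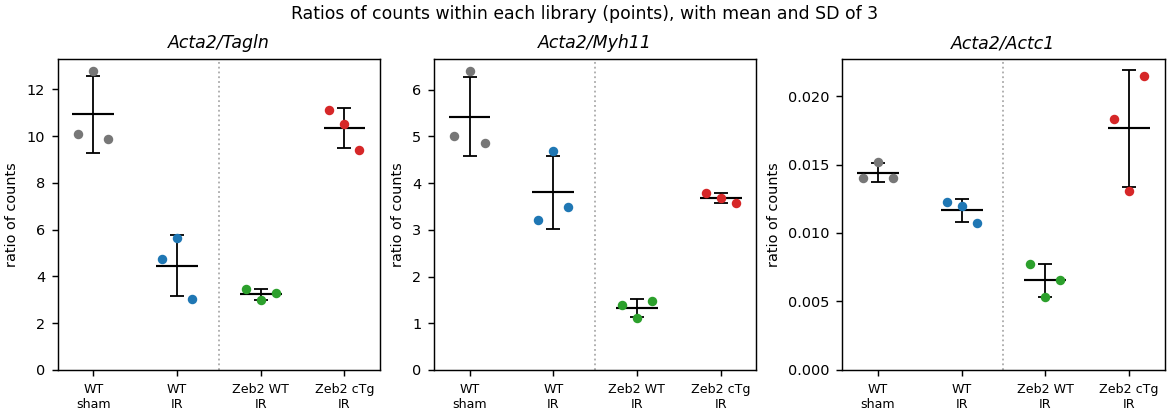
Ratio of the counts of Acta2 to those of Tagln, Myh11 and Actc1 (y axes, from 0) within each library (points), with the mean and SD of 3 libraries per group. For Acta2 to Tagln, WT sham (9.87 to 12.8) lies above WT IR (3.03 to 5.63), and Zeb2 cTg IR (9.42 to 11.1) above Zeb2 WT IR (2.97 to 3.45).

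Among the 6 actin genes, Acta2 was a minor product of this tissue. Per exon length, Actc1, the cardiac alpha actin, made up between 84.1% and 96.0% of all actin in the 12 libraries, and Acta2 between 0.377% and 1.5%. The median Acta2 share was 0.946% in WT sham, 0.767% in WT IR, 0.45% in Zeb2 WT IR and 1.29% in Zeb2 cTg IR. Acta1, the skeletal alpha actin that returns in stressed cardiomyocytes, went the opposite way to Acta2 in each comparison. It rose after IR, from 127, 129 and 101 CPM to 135, 188 and 250 CPM (log2 fold change 0.69 ± 0.20, edgeR adjusted p = 0.0358), and it fell in the libraries labelled Zeb2 cTg IR, from 32.0, 14.8 and 73.9 CPM to 4.61, 8.05 and 11.8 CPM (-2.29 ± 0.53, adjusted p = 0.0496). Both Acta1 calls lay near the threshold, and limma-voom did not call the second. The first was kept only without WT IR replicate 1, and the second only without Zeb2 WT IR replicate 2 or Zeb2 cTg IR replicate 2, with log2 fold changes of 0.44 to 0.88 and -2.68 to -1.51 over the fits without 1 library. Actc1 itself did not pass (-0.26 ± 0.14 after IR and 0.24 ± 0.12 in Zeb2 cTg IR), nor did the cytoplasmic actins Actb (0.39 and 0.13) and Actg1 (-0.59 and 0.19). Actb and Actg1 have many processed pseudogenes, so the counts assigned to them are uncertain.

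**Figure D4:**
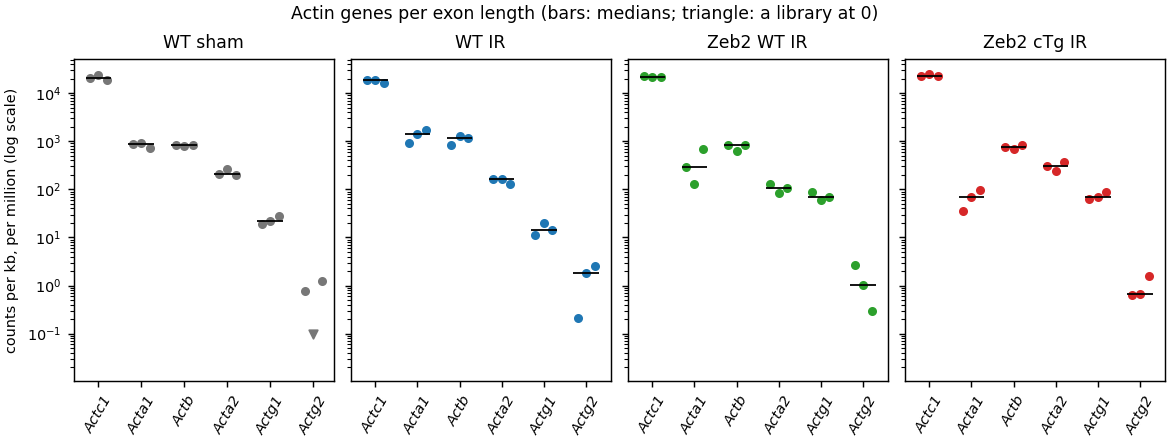
Length-scaled level (TPM, log scale) of the 6 actin genes in the libraries of each group (points), with the median as a bar and 1 library with 0 Actg2 counts as a triangle at the foot. Acta2 has medians of 213, 167, 107 and 301 from WT sham to Zeb2 cTg IR, far under Actc1 in every group.

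The partners of these genes in the contractile apparatus were read from a list of 12. After IR 11.0% of all tested genes were higher and 9.74% lower by edgeR. Of the 12 partners 5 rose and 0 fell by edgeR (2 lower at an unadjusted p under 0.05, 2 by DESeq2 and 0 by limma-voom). Those that rose were Actn1 (alpha-actinin 1, 0.86 ± 0.15), Cald1 (caldesmon, which binds actin and tropomyosin, 0.57 ± 0.11), Csrp1 and Flna (a LIM protein and filamin A, 0.49 each) and Myl6 (the essential light chain, 0.43 ± 0.09), with edgeR adjusted p-values between 0.00688 and 0.0244. These are actin-crosslinking and regulatory proteins found in fibroblasts as well as in muscle. Myh11 was at -0.017 ± 0.17 and did not pass. The median of the list was 0.29. Without WT sham replicate 2 none of the 5 kept its call, with adjusted p-values between 0.0504 for Actn1 and 0.125 for Flna.

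In the second comparison 1 of the 12 partners rose and 1 fell by edgeR and limma-voom, while DESeq2 called 3 higher and 1 lower (4 and 1 at an unadjusted p under 0.05). Of all tested genes 2.14% were higher and 1.51% lower by edgeR. Myl9, the light chain that Mylk phosphorylates, was 5.31, 3.07 and 4.69 CPM in Zeb2 WT IR and 21.2, 17.0 and 29.4 CPM in the libraries labelled Zeb2 cTg IR. This was 5.16-fold higher without overlap (log2 fold change 2.37 ± 0.25, edgeR adjusted p = 0.00204), and it passed in all 19 alternative settings. Cald1 went from 30.2, 32.6 and 38.0 CPM to 19.6, 23.0 and 20.4 CPM (-0.68 ± 0.13, adjusted p = 0.0283), and its call was kept only without replicate 1 of Zeb2 WT IR or replicate 2 of Zeb2 cTg IR among the fits without 1 library. Myh11 was at 0.20 ± 0.19 and did not pass, with 14.7, 12.4 and 11.3 CPM against 15.1, 10.8 and 18 CPM. After IR Myl9 had been at 0.30 ± 0.14 (adjusted p = 0.158).

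Of 12 genes for the kinase and phosphatase control of the light chain, 1 rose after IR (Calm2, a calmodulin gene, 0.43 ± 0.12) and 1 fell (Ppp1r14a, the inhibitor CPI-17 of the myosin phosphatase, -1.02 ± 0.27), with edgeR adjusted p-values of 0.0345 and 0.0271, where 20.8% of all tested genes passed. After IR DESeq2 called 1 of the 12 higher and 0 lower, limma-voom 1 and 1, and at an unadjusted p under 0.05 there were 2 and 2. Ppp1r14a had only 10 to 28 counts per library in the WT table. Both calls were kept only without WT IR replicate 1 among the fits without 1 library. In the second comparison 0 of the 11 tested genes of this list passed by edgeR, where 3.64% of all tested genes did. The log2 fold changes of the 11 lay between -0.37 and 0.71, although 1 was higher and 2 were lower at an unadjusted p under 0.05. DESeq2 called 1 of them higher and limma-voom called 0. The nearest, Calm3, another calmodulin gene, had an edgeR adjusted p of 0.0502.

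Of 7 genes for SRF, its cofactors and antagonists, 4 fell after IR and 0 rose by edgeR, as by DESeq2 and limma-voom (5 lower and 0 higher at an unadjusted p under 0.05). Of all tested genes 9.74% were lower and 11.0% higher by edgeR. Srf was 27.7, 28.7 and 22.1 CPM in WT sham and 20.2, 16.1 and 15.7 CPM in WT IR (-0.60 ± 0.13, edgeR adjusted p = 0.0129). Myocd (myocardin, the cofactor shared by cardiac and smooth muscle) went from 61.4, 59.8 and 53.9 CPM to 43.9, 35.2 and 31.6 CPM (-0.66 ± 0.12, adjusted p = 0.00795). For both genes every injured heart lay below every sham heart. Tead1, which binds MCAT elements, was at -0.32 ± 0.079, and Klf4, a repressor of the smooth muscle programme, at -0.42 ± 0.11. After the GC correction Srf was at -0.14 (adjusted p = 0.361) and Myocd at -0.74 (0.007). None of the 4 calls held without WT sham replicate 2 (adjusted p from 0.0526 for Klf4 to 0.111 for Tead1).

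In the libraries labelled Zeb2 cTg IR only Tead1 passed by edgeR among these 7 genes, falling from 64.5, 69.0 and 65.0 CPM to 36.2, 44.7 and 40.3 CPM (-0.71 ± 0.12, edgeR adjusted p = 0.0166). Of all tested genes 1.51% were lower and 2.14% higher. Srf (13.5, 9.14 and 10.6 CPM against 17.0, 15.3 and 19.1 CPM) and Myocd (44.3, 49.1 and 36.7 CPM against 57.2, 61.6 and 57.7 CPM) lay higher without overlap, but did not pass (0.63 ± 0.17 with an adjusted p of 0.0684, and 0.44 ± 0.13 with 0.0916). DESeq2 called 1 of the 7 higher and 1 lower, limma-voom 0 and 1, and at an unadjusted p under 0.05 there were 3 and 1. With the GC correction Srf was at 0.0085. The Tead1 call was lost without Zeb2 WT IR replicate 3 (adjusted p = 0.0792), Zeb2 cTg IR replicate 1 (0.0793) or Zeb2 cTg IR replicate 3 (0.0848).

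The members have close relatives in striated muscle and in other cells, and 13 of 16 such paralogues could be tested. After IR 3 rose, Acta1, Cnn3 (the calponin of non-muscle cells, 0.47 ± 0.12) and Tagln2 (the transgelin of non-smooth-muscle cells, 0.43 ± 0.12), and 0 fell by edgeR (2 at an unadjusted p under 0.05, 1 by DESeq2 and 0 by limma-voom). Higher calls numbered 4 by DESeq2, 2 by limma-voom and 5 at an unadjusted p under 0.05. Over all tested genes 11.0% were higher and 20.8% passed in either direction by edgeR. The 3 calls were kept only without WT IR replicate 1. In Zeb2 cTg IR 2 rose and 1 fell by edgeR, where 2.14% of all tested genes were higher and 1.51% lower. DESeq2 called 2 higher and 1 lower, limma-voom 2 and 0, and at an unadjusted p under 0.05 there were 5 and 2. Mylk3, the myosin light chain kinase of cardiomyocytes, went from 250, 196 and 216 CPM to 407, 397 and 387 CPM (0.85 ± 0.13, edgeR adjusted p = 0.0117), whereas Mylk itself was at 0.012. Smtnl2, a smoothelin-like gene, went from 4.18, 4.73 and 3.6 CPM to 8.92, 7.25 and 10.1 CPM (1.08 ± 0.18, adjusted p = 0.0159), and the gene that fell was Acta1. Without Zeb2 WT IR replicate 3 neither Mylk3 (0.0672) nor Smtnl2 (0.088) kept its call, and Smtnl2 also lost it without Zeb2 cTg IR replicate 1 (0.0612) or replicate 3 (0.0748).

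**Figure D5:**
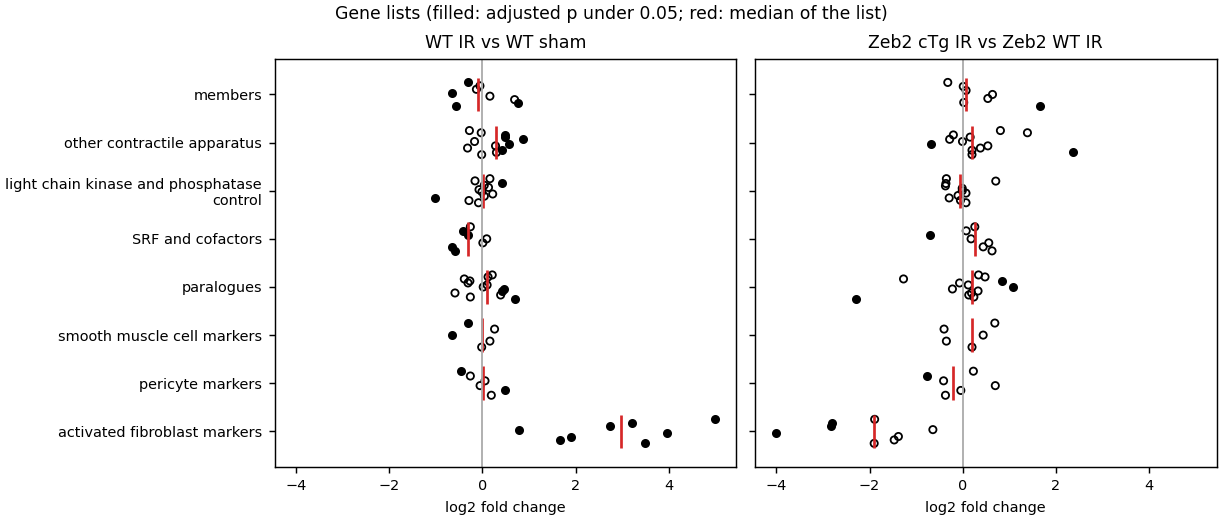
Log2 fold changes (x axis) of the tested genes of 8 lists (rows) in WT IR against WT sham (left) and Zeb2 cTg IR against Zeb2 WT IR (right), filled where the adjusted p was under 0.05, with the median of each list in red. The activated fibroblast markers have a median of 2.98 on the left and -1.89 on the right, while the members lie between -0.66 and 0.77 on the left and reach 1.67 with Acta2 on the right.

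Markers of the cells that could carry these genes were read beside them. For scale, by edgeR 11.0% of all tested genes were higher and 9.74% lower after IR (20.8% in both directions). In the second comparison 2.14% were higher and 1.51% lower (3.64% in both directions). For smooth muscle cells, 2 of 5 markers fell after IR (Myocd, and Pcp4l1 at -0.32 ± 0.089) and 0 rose. The 0 also held at an unadjusted p under 0.05 and by DESeq2 and limma-voom. Of the 5, 2 lay above 0 after IR and 3 below, with Itga8 at 0.26, Kcnmb1 at 0.16 and Myh11 at -0.017. Myocd is shared by cardiac and smooth muscle, and the cells in which it fell were not tested. Myocd kept its call in 5 of the 6 fits without 1 library, and Pcp4l1 in 2. By edgeR 0 passed in the second comparison (2 higher and 1 lower at an unadjusted p under 0.05, 1 higher by DESeq2 and 0 by limma-voom), with summed levels of 73.5 to 93.0 CPM in Zeb2 WT IR and 107 to 115 CPM in Zeb2 cTg IR. Most of these sums came from Myocd (means of 43.4 and 58.8 CPM) and Pcp4l1 (21 and 33.8 CPM). There 3 of the 5 markers lay above 0 and 2 below. Myh11 was at 0.20 with overlap, Kcnmb1 at -0.35 with overlap, and Itga8 at -0.40, lower without overlap. Of 6 pericyte markers, Pdgfrb rose (0.48 ± 0.08) and Notch3 fell (-0.47 ± 0.10) after IR, with the call kept in 6 and 4 of the 6 fits without 1 library. Abcc9 fell in Zeb2 cTg IR (-0.76 ± 0.14), where 2 of the 6 markers lay above 0 and 4 below. The cells in which Abcc9 fell were not tested. The Abcc9 call was kept only without Zeb2 WT IR replicate 3 or Zeb2 cTg IR replicate 2. All 8 activated fibroblast markers rose after IR, from Fap (0.78) and Col1a1 (1.67) over Fn1 (1.91), Tnc (2.74), Lox (3.22), Postn (3.49) and Cthrc1 (3.97) to Ltbp2 (5). Their summed level was 100 to 263 CPM in WT sham, with the highest value in replicate 1, and 485 to 1398 CPM in WT IR. All 8 lay below 0 in the libraries labelled Zeb2 cTg IR, where 3 fell by edgeR (Cthrc1 at -4.01, Tnc at -2.83 and Lox at -2.80). At an unadjusted p under 0.05 8 were lower, by DESeq2 5 and by limma-voom 2. Thus Acta2 and the median of these markers had opposite signs in both comparisons, and the part of these cells in the Acta2 values was not tested. Without WT sham replicate 2, 3 of the 8 calls after IR were kept, and Lox alone of the 3 lower genes kept its call with each library left out. Of 5 resting fibroblast markers, Dpt (1.84), Dcn (1.47) and Pdgfra (0.78) rose after IR. Pdgfra lost its call without WT sham replicate 2 (edgeR adjusted p = 0.0657), and Dpt and Dcn kept theirs with each library left out. By edgeR 0 of the 5 passed in the second comparison (3 lower at an unadjusted p under 0.05, 2 by DESeq2 and 0 by limma-voom). Macrophage markers rose in 4 of 5 cases after IR (Lyz2, Adgre1, Cd68 and Csf1r, from 0.54 to 1.35). In that order, the calls were kept in 6, 5, 2 and 2 of the 6 fits without 1 library. Cd163 rose in Zeb2 cTg IR (1.63), where 3 of the 5 lay above 0 and 2 below. The Cd163 call was lost without Zeb2 WT IR replicate 2, Zeb2 WT IR replicate 3 or Zeb2 cTg IR replicate 1 (adjusted p from 0.0531 to 0.0883). Among the cardiomyocyte markers, Tnni3 (-0.52) and Ryr2 (-0.58) fell after IR, with the call kept in 1 and 2 of the 6 fits without 1 library. Mybpc3 (0.84) and Tnnt2 (0.68) rose in Zeb2 cTg IR. There 4 of the 8 lay above 0 and 4 below, by edgeR 0 fell (1 by DESeq2, 0 by limma-voom and 1 at an unadjusted p under 0.05), and Myl2 (-0.38) and Pln (-0.34), named after their values were seen, lay lower without overlap. Tnnt2 kept its call only without Zeb2 cTg IR replicate 2, and Mybpc3 only without that library or Zeb2 WT IR replicate 1. Of 5 endothelial markers 0 passed in either comparison by edgeR (0 and 2 at an unadjusted p under 0.05, 0 and 1 by DESeq2, 0 by limma-voom).

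The genes most like each of 3 members were found by the correlation of log2 CPM over the 12 libraries, after the mean of each table had been removed, among 11999 genes tested in both tables. The libraries share their group and size factor, so these values describe the pattern only. For Acta2 they were Cryab (r = 0.982), Mcm3ap (0.979), Hspbp1 (0.978), Mfn2 (0.974) and Nop2 (0.974). Cryab, the small heat shock protein abundant in cardiomyocytes, went from 316 ± 25.3 to 245 ± 22.8 CPM (SD, n = 3) after IR and from 189 ± 15.5 to 328 ± 45.7 CPM in the second comparison, and passed in both (edgeR adjusted p = 0.0341 and 0.0193). Mfn2, which fuses mitochondria, had an edgeR adjusted p of 0.0621 after IR and 0.0139 in the second comparison (0.93 ± 0.15). In the same order it was 0.358 and 0.0813 for Mcm3ap, 0.053 and 0.0255 for Hspbp1, and 0.258 and 0.0268 for Nop2. All 5 were chosen for following Acta2 with the group differences left in, so these tests are not separate evidence. With the mean of each group removed instead, 0 of these 5 genes were among the 5 most like Acta2. Among the other members, Smtn (0.79) and Cnn2 (0.64) were nearest to Acta2, while Tagln was at -0.13 and Synpo2 at -0.30. For Cnn1 the 5 genes were Cebpd (0.831), Fam76a, Slc15a2, Adgrg6 and Hipk1 (0.754), and for Actg2 they were Rap2b (0.906), Meg3, Dnm1, Rgs16 and Dlg4 (0.836). Both targets had at most 18 counts in a library, where counting error weighs on any correlation.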

How the data were processed

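Heart RNA of 12 mice (the region differs between the sources) was sequenced as single reads of 75 bases. The authors deposited 2 tables of raw read counts per gene, made with STAR 2.4.2a and HTSeq 0.6.1 (per the submitters' processing notes) against mm10 with GENCODE release 4 for mouse. Whether the counting used the strand is not stated, and the sources name a stranded mRNA kit and a total RNA kit. Libraries were grouped by their labels, and each table was normalized and tested on its own (edgeR 4.0.16 in R 4.3.3: TMM, filterByExpr with a minimum count of 10, quasi-likelihood test, Benjamini-Hochberg adjustment over all tested genes, threshold 0.05). The counts carried no column of other samples. P-values measure the spread between 3 animals per group. Counting error alone bounds a count of 0 at 3 counts. No 2 libraries agreed within sampling noise (chi-square per gene at least 7.36).

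Symbols came from GENCODE release 21 for mouse and promoter windows from RefSeq. Ratios were tested by an exact two-sided permutation test. Alternatives were other size factors, filters, DESeq2 1.42.0, limma-voom (limma 3.58.1), a replicate block, a GC correction, 1 fit over 12 libraries and each library left out. The code was tested on simulated data. The members and gene lists were chosen with earlier results of these data known. The genes named were the 9 members, genes of the lists past the threshold, Myh11, Srf, Myocd, the 6 actins, and the 5 genes most like each of Acta2, Cnn1 and Actg2. Calm3, Itga8, Kcnmb1, the other antisense neighbours and the sequences of Myl9 and Synpo2 were chosen after their values were seen.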

Additional observations from a re-analysis of the deposited data

How the results depend on the processing

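The number of members called after IR (4) was 2 with cardiomyocyte marker size factors, 1 in the fit over 12 libraries, 3 with the replicate block and 1 to 4 with 1 library left out, and in the second comparison (1) it was 3 with the replicate block or with both replicate 2 libraries left out (chosen after seeing the data) and 1 to 3 with 1 library left out. Over all genes, 2859 were called after IR, against 4549 with cardiomyocyte marker size factors, 1424 in the fit over 12 libraries and 421 to 4979 with 1 library left out. In the second comparison 474 were called, against 1553 with no filter, 1813 with the block, 836 with the GC correction, 739 with both, 1096 by DESeq2, 1932 in the fit over 12 libraries, 2151 without both replicate 2 libraries and 98 to 2419 with 1 library left out, where the fewest came without Zeb2 WT IR replicate 3 and the most without Zeb2 cTg IR replicate 2. The share of calls that were higher was 53.1% after IR (42.7% with the GC correction) and 58.6% in the second comparison (42.7% with cardiomyocyte marker size factors, which moved the median of all genes by -0.12). The cause was not tested. 

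Replicate numbers were shared between the groups, and the libraries of 1 number deviated with r of -0.034, 0.012 and -0.015 in the WT table and 0.13, 0.26 and -0.042 in the other. Thus numbers 1 and 2 of the second table deviated together weakly and number 3 did not, the numbers were not taken to pair the libraries, and not every library correlated best with its own number. With the block, edgeR gave adjusted p-values of 0.0689 for Synpo2 after IR, and 0.0223 for Cnn2 and 0.0286 for Smtn in the second comparison.

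Signs turned for genes that had not passed, and for Synpo2, Tead1 and Pcp4l1. With cardiomyocyte marker size factors the log2 fold changes after IR were 0.26 for Lmod1, 0.34 for Mylk, 0.09 for Synpo2, 0.36 for Myh11, 0.08 for Tead1, 0.14 for Actc1 and 0.072 for Pcp4l1, and in the second comparison -0.14 for Tagln, -0.086 for Lmod1, -0.12 for Mylk and -0.018 for Actb. In the second comparison Mylk was at -0.0084 with upper quartile factors and -0.025 without both replicate 2 libraries, and Tagln at -0.004 with the block. The GC correction gave -0.12 for Tagln, -0.12 for Lmod1 and -0.17 for Mylk, and with the block as well -0.14, -0.13 and -0.17, with Srf at -0.019. With 1 library left out, the ranges were -0.17 to 0.012 for Mylk, -0.25 to 0.13 for Myh11, -0.26 to 0.041 for Lmod1 and -0.11 to 1.04 for the ratio of Cnn1 to Cnn2 after IR, and -0.22 to 0.21 for Tagln, -0.25 to 0.41 for Lmod1 and -0.087 to 0.18 for Mylk in the second comparison. Of 273 values of members under the alternatives, 224 kept their direction and side of the threshold. At 0 to 34 counts per library, only large differences in Actg2, Cnn1 and Lmod1 could have been seen.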
